A study of Mus musculus with 33 samples.

Results

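The cells described here are radial glia-like neural stem cells of the adult mouse hippocampus, taken from single-cell transcriptomes of the hippocampal niche. They were chosen on 13 genes in a deposited table that holds about 1500 transcripts per cell. A cell is a member when Aldoc, Clu, Slc1a3, Hopx, Mlc1, Ttyh1 and Mfge8 together reach 20 transcripts, Hopx plus Sparc reach 4, and Hopx plus Sparc are at least 3 times the sum of Aqp4, S100b, Kcnk1, Grin2c and F3, which are genes of mature astrocytes. The rule found 58 members among 1536 cells. All mice of the niche experiments were C57BL/6 wild type. Their hippocampi were depleted of neurons, and live cells that carried neither GluR1 nor Cd24 at the surface were sorted into single wells and sequenced by SORT-seq, which counts molecules at the 3′ end of the transcript with a barcode for each molecule. The groups used here are 5 sorting experiments on these mice, 1 library from C57BL/6 mice of more than 12 months, and 1 Nestin-GFP library. The last holds GFP-positive cells from Nestin-GFP mice, in which the reporter itself was sorted for. The number of mice behind each experiment, and the age of the mice in the 5 experiments, are not stated in the labels.

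Radial glia-like cells of the dentate gyrus are the source of new granule neurons in the adult hippocampus. They share much of their expression with astrocytes, and they give rise to intermediate progenitors marked by Eomes and then to neuroblasts marked by Dcx and Sox11. Notch and BMP signals are known to hold most of these cells in quiescence, and Wnt signals to promote neurogenesis.

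The median number of transcripts per cell in the count files lay between 2693 in experiment 5 and 12698 in experiment 4. Members came from 19 of 32 libraries with a cell in the table, at most 9 from one library, and 6 well numbers were carried by more than 1 member, 13 members in all. In the 5 experiments together 47 of 1109 cells were members, or 4.24% (3.13% to 5.60%). Replicates below are sorting experiments, with the cells of a class summed within each. Nothing in the labels separates animals, so spread between animals is not measured. The p-values of the fits rest on the spread left after the level of each experiment is taken out. The estimate of that spread is shared in part over genes. A small p-value thus does not by itself measure how well 1 gene repeats between experiments.

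The members were spread unevenly over the experiments. Experiment 1 held 4 members among 377 cells, or 1.06% (95% exact interval 0.290% to 2.69%). Experiment 2 held 24 of 343, or 6.997% (4.53% to 10.2%). Experiment 3 held 11 of 127, or 8.66% (4.40% to 14.97%). Experiment 5 held 8 of 126, or 6.35% (2.78% to 12.1%). Experiment 4 held none of 136, which allows a share of up to 2.21% (3 cells of 136), although 12 other astrocyte-lineage cells and 68 neurogenic cells were sorted there. The intervals of the 3 experiments with high shares thus start at 2.78% or above, and that of experiment 1 ends at 2.69%. Over the 5 experiments the share was 4.61% ± 3.84 (SD, n = 5). Among astrocyte-lineage cells, meaning cells that reach the 20 transcripts of the first condition, members were 19.96% ± 17.2 (SD, n = 5), from 0 of 12 in experiment 4 to 24 of 55, or 43.6%, in experiment 2. The library of older mice held 2 members among 128 cells, or 1.56% (0.190% to 5.53%), and the Nestin-GFP library 9 among 299, or 3.01% (1.39% to 5.64%). Both are single libraries, so age and reporter cannot be told apart from the library. Intervals cover counting error only.

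**Figure D1:**
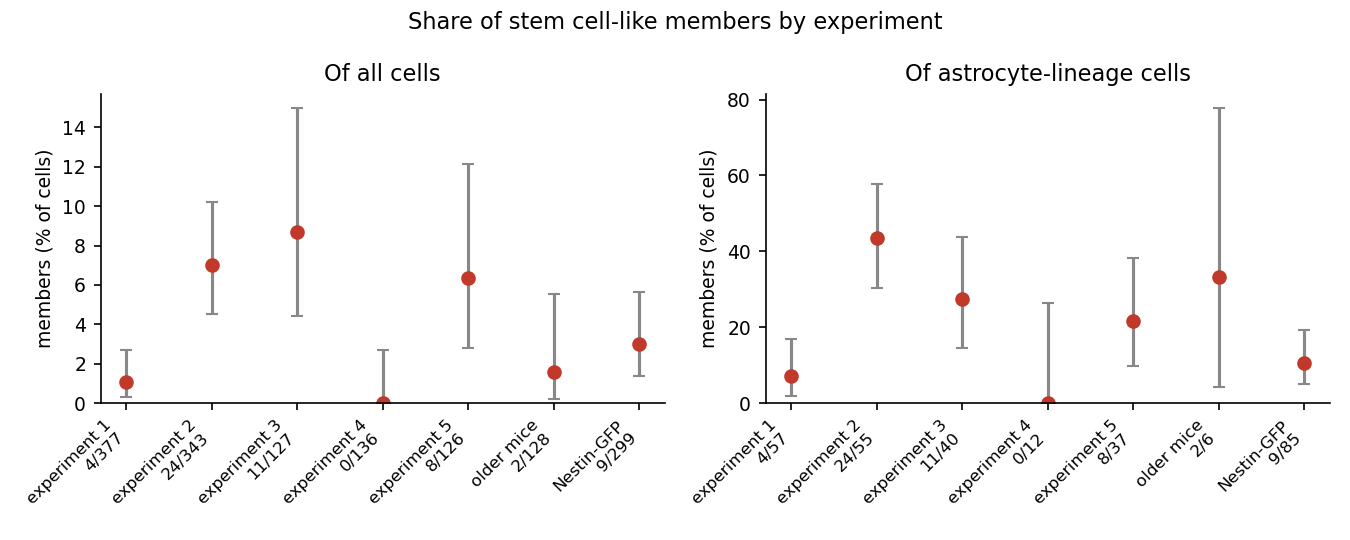
Members as a percentage of all cells (left) and of astrocyte-lineage cells (right) in each experiment and library, with 95% exact binomial intervals and the counts below each point. Experiments 2, 3 and 5 lie between 6.35% and 8.66% of all cells, and experiments 1 and 4 at 1.06% and 0.

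The identity of the members rests on the genes that chose them, and those values are a description. Per cell of about 1500 transcripts, members held on average 6.28 transcripts of Hopx, a homeodomain-only protein that marks quiescent stem cells in several tissues, against 1.77 in the 234 other astrocyte-lineage cells and 0.0709 in the 254 neurogenic cells. Of the 58 members, 55 had at least 1 Hopx transcript. Aldoc, a glycolytic enzyme of the astrocyte lineage, averaged 10.3 in members and 12.8 in other astrocyte-lineage cells. Mfge8, a secreted glycoprotein, averaged 4.07 and 3.21. Ttyh1, like Aldoc, was lower in members, at 5.17 against 6.81. Sparc averaged 3.59 in members and 0.927 in other astrocyte-lineage cells. In 329 microglia-like cells (5 or more transcripts of microglial markers) it averaged 8.40 and was seen in 96.4%. Sparc is thus not particular to members. Of the 5 mature genes, the potassium channel gene Kcnk1 was at 0 in every member, and 29 members had no transcript of any of the 5. At the edges of the rule, 8 members had a Hopx plus Sparc sum of 4 or 5, and 5 cells were left out with a sum of 3. The ratio was between 3 and 4 in 6 members, and 8 cells were left out with a ratio between 2 and 3.

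Stem cell genes that the rule did not use gave a mixed picture at this depth. Nes, which encodes nestin, was seen in 2 of 58 members (3.45%, exact interval 0.420% to 11.9%). It was seen in none of 234 other astrocyte-lineage cells and in 5 of 254 neurogenic cells (1.97%). It was also seen in 2 of 329 microglia-like cells (0.608%, 0.0737% to 2.18%), cells chosen by 5 or more transcripts of microglial markers. Gfap, the intermediate filament of astrocytes and radial glia, was seen in 23 members (39.7%), close to the 40.6% of other astrocyte-lineage cells and far from the 0.912% of microglia-like cells. Tfap2c, a transcription factor described in hippocampal stem cells, was seen in 7 members (12.1%, 4.99% to 23.3%). It was seen in 1 of 234 other astrocyte-lineage cells (0.427%), in 6 neurogenic cells (2.36%) and in none of the microglia-like cells. Wnt8b, a Wnt ligand of the hippocampal field, was seen in 5 members (8.62%) and in 1 other astrocyte-lineage cell. Prom1 and Hes1 were not seen more often in members: Prom1 in 6.90% against 7.69% of other astrocyte-lineage cells, and Hes1 in 8.62% against 12.8%. In the summed count files Tfap2c reached 160 CPM (counts scaled to 1000000 transcripts of the class in that experiment, leaving out the 13 genes of the rule) in experiment 2 and 125 CPM in experiment 3, and was at 0 in experiment 5. The median transcripts per cell in the count files were 4856 for members, 3572 for other astrocyte-lineage cells and 3690 for microglia-like cells. The table sets all classes at about equal depth.

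Markers of other cell types were low. Dcx was at 0 in every member, and the 8 neuroblast markers summed to 0.397 transcripts per cell, against 0.410 in other astrocyte-lineage cells and 13.98 in neurogenic cells. The 10 microglial markers summed to 0.810 per member and the 8 endothelial markers to 0.103, with Cldn5, Pecam1, Cdh5, Ly6c1 and Kdr at 0. Mature oligodendrocyte markers reached 5 or more transcripts in 6 members, and all 6 were among the 9 members of the Nestin-GFP library, where their summed level was 4291 CPM against 318 to 674 CPM in experiments 2, 3 and 5. Beside that, other astrocyte-lineage cells of the Nestin-GFP library held 2322 CPM of the same markers and its neurogenic cells 2123 CPM.

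To ask what separates members from the rest of their lineage, members were compared with the other astrocyte-lineage cells. Experiments 2, 3 and 5 had at least 5 cells of both classes and entered the fit. Of 2296 genes tested, 169 (7.36%) passed an adjusted p of 0.05: 54 were higher in members (2.35%) and 115 lower (5.01%). Members were higher in the secreted Wnt antagonists Frzb and Sfrp1 and in Vim, and lower in 20 of 39 genes with astrocyte functions, among them Gja1 of gap junctions and the bicarbonate cotransporter gene Slc4a4. These cells were picked on 13 genes in the same wells, so the tests describe how cells so picked differ in other genes and are no independent identification. With DESeq2, 52 genes passed. The count changed with the experiments used. Without experiment 2 no gene passed (235 had an unadjusted p under 0.05), and without experiment 3 none passed (357 unadjusted). Without experiment 5, which has the fewest members of the 3, 137 passed. Leaving out an experiment also leaves fewer sums, so a loss of power cannot be told apart from dependence on that experiment.

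Of the list of radial glia and stem cell genes, 22 were tested, 5 rose and 2 fell. Over all genes tested 2.35% rose and 5.01% fell. The median log2 difference of the list was 0.24 beside 0.02 over all genes tested. Frzb, a secreted Wnt antagonist on chr2:80411970-80447625 (mm10, GENCODE vM21), was at 308, 235 and 236 CPM in the members of experiments 2, 3 and 5 and at 17.3, 75.7 and 0 CPM in the others (log2 fold change 2.91 ± 0.56, SE, adjusted p = 0.000660). Sfrp1, of the same family, was at 178, 395 and 118 CPM against 95.1, 31.4 and 0 CPM (2.34 ± 0.58, adjusted p = 0.00768). The member sums of both genes lay above all sums of the others. Such a lack of overlap was seen in 134 of the 169 genes that passed. Vim, the vimentin filament gene, was at 448, 472 and 324 CPM against 173, 101 and 154 CPM (1.54 ± 0.35, adjusted p = 0.00302). Fabp7, the brain fatty acid binding protein of radial glia, was at 1037, 2298 and 1919 CPM against 891, 870 and 330 CPM, and its log2 difference was 1.25 ± 0.30 (adjusted p = 0.00615). In experiment 2 Fabp7 was only slightly higher in members. The 2 genes that fell were Gabrg1 and Fgfr3. Gabrg1, a GABA-A receptor subunit, was at 12.2, 0 and 0 CPM against 233, 107 and 231 CPM. It had 2 counts in members and 65 in the others, and was tested only through the latter. Fgfr3, a growth factor receptor, was at 319, 711 and 501 CPM against 1000, 926 and 1618 CPM.

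Sox2 and Sox9, transcription factors of the glial and stem cell state, did not pass the test. Sox2 was at 813, 567 and 590 CPM in members and at 859, 659 and 473 CPM in the others (log2 difference -0.06 ± 0.27, adjusted p = 0.932). Sox9 was at 1124, 2044 and 974 CPM against 1077, 1135 and 1232 CPM (0.19 ± 0.27, adjusted p = 0.788). The sums of both genes overlap between the classes. Of 11 forebrain transcription factors tested only 1 rose, where 2.35% of all genes tested rose. It was Zbtb20, a factor of hippocampal patterning, with 827, 551 and 797 CPM against 408, 359 and 286 CPM (0.97 ± 0.28, adjusted p = 0.0267).

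**Figure D2:**
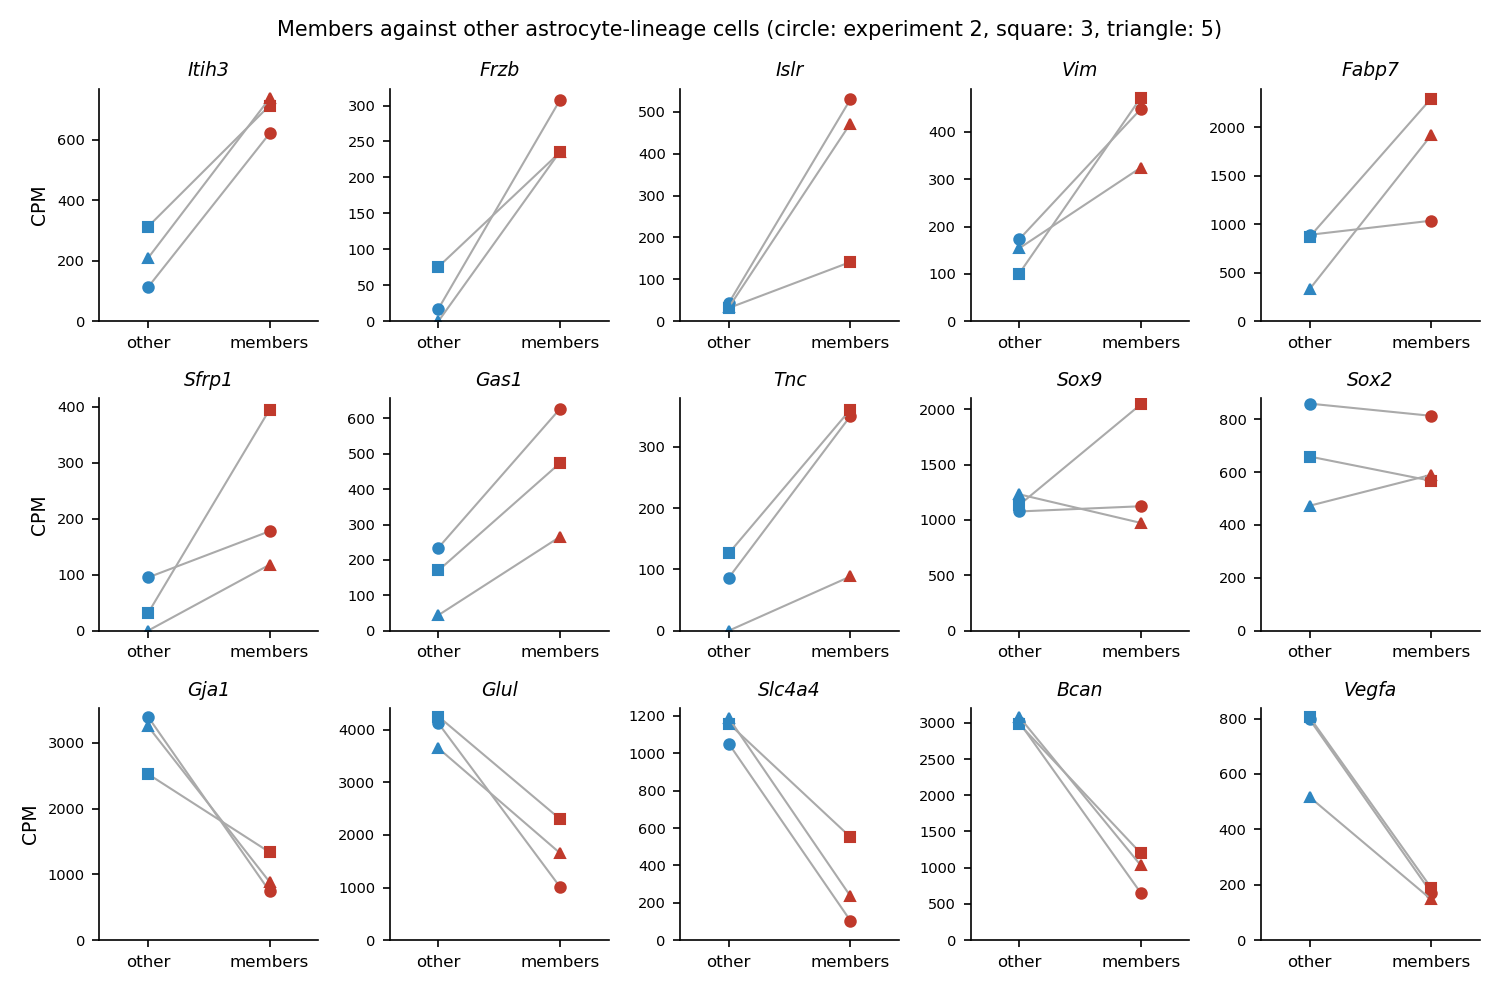
Level in CPM of 15 genes in the other astrocyte-lineage cells (blue) and the members (red) of experiments 2 (circle), 3 (square) and 5 (triangle), joined by a line within each experiment. Itih3, Frzb and Islr do not overlap between the classes, like 134 of the 169 genes that passed, and Sox2 and Sox9 do. Gja1, Glul, Slc4a4, Bcan and Vegfa are lower in members in each experiment.

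Signalling genes moved in several lists, beside 2.35% of all genes tested that rose and 5.01% that fell. In the Wnt list 10 genes were tested, 3 rose (Frzb, Sfrp1 and Dkk3) and Daam2, an activator of the pathway, fell. Dkk3, a secreted protein of the Dickkopf family, was at 362, 361 and 501 CPM in members and at 104, 164 and 242 CPM in the others (1.28 ± 0.33, adjusted p = 0.0118). In the Hedgehog list 2 genes were tested and Gas1, a co-receptor for Sonic hedgehog, rose, with 627, 474 and 265 CPM against 235, 170 and 43.96 CPM (1.57 ± 0.33, adjusted p = 0.00169). In the BMP and TGF-beta list 5 were tested and Id2 and Id3, which encode inhibitors of bHLH factors and are targets of BMP signals, fell. Id2 was at 581, 415 and 265 CPM against 782, 874 and 1276 CPM (-1.13 ± 0.30, adjusted p = 0.0136). None of 4 Notch genes tested passed by edgeR (1 had an unadjusted p under 0.05, and none passed with DESeq2): Notch2 was at 364 ± 122 CPM in members and 207 ± 37.0 in the others (SD, n = 3), Hes5 at 340 ± 193 and 191 ± 133, and Notch1 at 257 CPM and 192 CPM on average.

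Of the growth factor receptors and ligands 14 were tested, 4 fell and 1 rose. Over all genes tested 5.01% fell and 2.35% rose. Igfbp2, which binds insulin-like growth factors and lies on chr1:72824503-72852474, had no transcript in any member, in the count files of all experiments, against 234, 304 and 220 CPM in the other astrocyte-lineage cells of experiments 2, 3 and 5. With a floor of 3 counts over the group it was at least 22.8-fold lower. It had 0 counts in members and 96 in the others, and was tested only through the latter. Its direction was thus set by the filter on low counts, and it is given without a p-value. Vegfa, the vascular growth factor, was at 172, 189 and 147 CPM against 797, 805 and 517 CPM (-2.13 ± 0.31, adjusted p = 3.41e-05). Ednrb, the endothelin B receptor, was at 135, 110 and 147 CPM against 572, 501 and 704 CPM (-2.19 ± 0.33, adjusted p = 3.41e-05). Of the genes of extracellular matrix and adhesion 17 were tested, 2 fell and 2 rose. Bcan, the proteoglycan brevican, was at 653, 1200 and 1033 CPM against 3009, 2984 and 3083 CPM (-1.75 ± 0.27, adjusted p = 3.41e-05), and Tnc, tenascin C of the stem cell niche, at 350, 361 and 88.4 CPM against 86.5, 126 and 0 CPM (1.89 ± 0.46, adjusted p = 0.00643). Tnc overlapped between the classes because its member sum in experiment 5 was below the other sum of experiment 3. Ptprz1, a receptor phosphatase of radial glia, rose by 0.93 ± 0.27 on the log2 scale, from 1172 to 2395 CPM on average (adjusted p = 0.0268).

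Genes with astrocyte functions were the list with the most falls. Of 39 tested, 20 fell and 1 rose, where 5.01% of all genes tested fell and 2.35% rose. The median log2 difference of the list was -1.01 beside 0.02 over all genes. With DESeq2, 11 fell and 1 rose. Gja1, the gap junction protein connexin 43, was at 743, 1336 and 885 CPM in members and at 3395, 2524 and 3249 CPM in the others (-1.69 ± 0.28, adjusted p = 9.74e-05). Slc4a4, a sodium bicarbonate cotransporter, was at 105, 552 and 236 CPM against 1051, 1159 and 1188 CPM (-2.20 ± 0.34, adjusted p = 3.41e-05). Glul, glutamine synthetase, was at 1012, 2302 and 1654 CPM against 4118, 4248 and 3645 CPM (-1.40 ± 0.27, adjusted p = 0.000741). For all 3 genes no member sum reached any sum of the others, as was usual among genes that passed (134 of 169). The gene that rose was Itih3, of the inter-alpha-trypsin inhibitor family, at 621, 714 and 737 CPM against 113, 313 and 209 CPM (1.72 ± 0.30, adjusted p = 0.000202). Apoe, the main lipid carrier of glia, was at 11970, 10880 and 13350 CPM in members and at 21090, 14850 and 20560 CPM in the others and did not pass (adjusted p = 0.165). The glutamate transporter Slc1a2 did not pass either (adjusted p = 0.592).

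In glycolysis 4 of 13 genes tested fell and none rose, with a median log2 difference of -0.85, where 5.01% of all genes tested were lower. They were Pfkp, Ldhb, Gapdh and Pfkm, of which Gapdh was at 648, 1452 and 1564 CPM in members against 1352, 2482 and 2730 CPM (-0.92 ± 0.25, adjusted p = 0.0172). Among genes of oxidative phosphorylation 2 of 33 fell, a share near that over all genes, and among genes of lipid metabolism 4 of 24 fell and Fabp7 rose. None of 61 ribosomal protein genes passed (17 had an unadjusted p under 0.05, and none passed with DESeq2), with a median difference of 0.46, and 57 of the 61 differences were above 0. Ribosomal protein genes share reads with pseudogene copies, and each gene's value is uncertain for that reason. None of 7 cell cycle genes tested passed by edgeR (1 had an unadjusted p under 0.05, and none passed with DESeq2).

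Other genes with the largest rises were Islr, Tmem132b, Abca8a, St8sia2, Adamts1, Cntnap2 and Cyp1b1. Islr, on chr9:58156268-58204306, encodes a secreted leucine-rich repeat protein and was at 530, 141 and 472 CPM against 43.4, 31.5 and 32.97 CPM (3.18 ± 0.47, adjusted p = 3.41e-05). It stood at 926 CPM in the 4 members of experiment 1, where the other astrocyte-lineage cells had 13.2 CPM, and at 115 CPM in the Nestin-GFP members against 6.71 CPM, where 1 of the 9 members carried all of its transcripts. Tmem132b, a transmembrane protein gene, was at 499, 330 and 295 CPM against 51.8, 25.1 and 76.9 CPM (2.93 ± 0.45, adjusted p = 3.41e-05). St8sia2, a polysialyltransferase that modifies NCAM, was at 135, 142 and 147 CPM against 43.2, 31.4 and 0 CPM (2.29 ± 0.70, adjusted p = 0.0373). The further genes with the largest falls were Tuba4a, Atp13a4, Mboat2, Lmo4, Rapgef3, Pfkp, Epas1, Aifm3, Btbd17 and Thy1. Epas1, the hypoxia-inducible factor HIF-2 alpha, was at 30.6, 31.3 and 59.0 CPM against 312, 463 and 462 CPM (-3.41 ± 0.45, adjusted p = 7.19e-06).

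**Figure D3:**
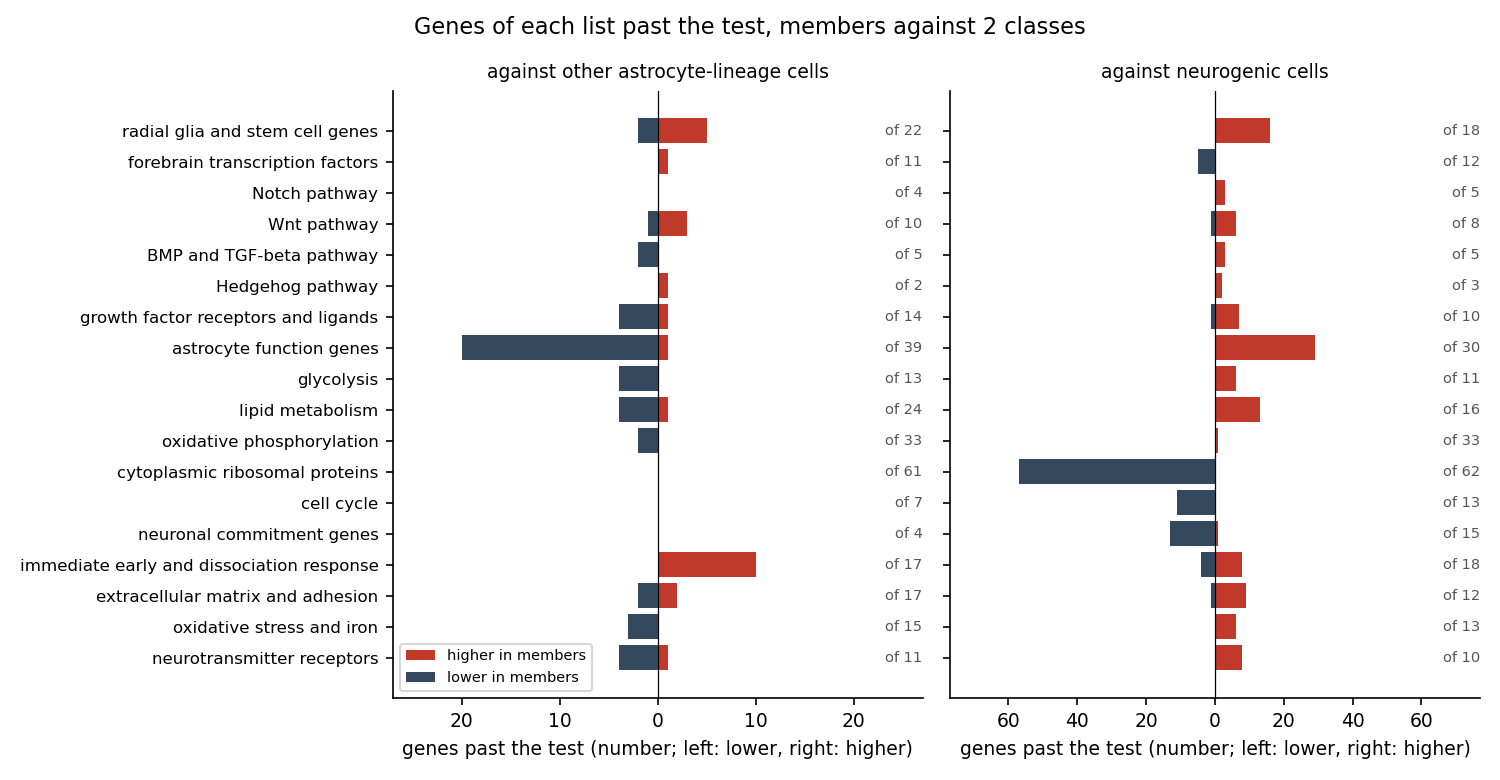
Number of genes of each list higher (red) and lower (dark blue) in members at an adjusted p under 0.05, against other astrocyte-lineage cells (left) and neurogenic cells (right), with the number tested at the right edge. Astrocyte function genes are lower on the left (20 of 39) and higher on the right (29 of 30), and ribosomal protein genes are lower on the right (57 of 62).

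Immediate early genes, which respond within minutes to activity and also to tissue dissociation, were higher in members. Of 34 genes on this list 17 were tested, 10 rose and none fell, where 2.35% of all genes tested rose. The median log2 difference of the list was 1.16. With DESeq2, 2 of the 17 rose. Fos, a subunit of the AP-1 factor, was at 1279, 4959 and 147 CPM in members and at 495, 1253 and 110 CPM in the others (1.52 ± 0.30, adjusted p = 0.000885). Dusp1, a phosphatase of MAP kinases, was at 98.0, 1233 and 59.0 CPM against 25.9, 243 and 32.97 CPM (2.07 ± 0.41, adjusted p = 0.000885). Experiment 3 was high in both classes, and the sums of the 2 classes overlap. The summed level of the list was 9050, 27229 and 4394 CPM in members and 5277, 8551 and 3683 CPM in the others, so the difference was largest in experiment 3 and small in experiment 5. Per cell of about 1500 transcripts, members of experiment 3 held a median of 40 transcripts of the list, from 5 to 76, against 6 in the other astrocyte-lineage cells of that experiment. In experiment 2 the medians were 12.5 and 5, and in experiment 5 they were 4.5 and 5. Without experiment 3 none of 14 genes of the list passed (4 had an unadjusted p under 0.05) and the median fell to 0.59. No gene outside the list passed in that fit either, and none passed without experiment 2. The loss is therefore not particular to this list. The part of the immediate early genes in the other differences between these classes was not tested.

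The promoters of 8 of these 10 genes are in the RefSeq table for GRCm38.p6, Cyr61 under the symbol Ccn1. They are shown because the genes moved together: the cyclic AMP response element TGACGTCA, which reads the same on both strands, was found within 250 bases upstream of the start site in Dusp1 and Btg2, 2 of 8 genes (25%). Over all genes of the list that were tested and have a promoter in the table it was found in the same number, 2 of 14 (14.3%). It was found in 61 of 1773 genes tested that have a promoter in the table (3.44%) and in 508 of 32851 promoters of the table (1.55%). The CArG box of serum response, searched on the same bases, was found in none of the 8 genes, in 1 of the 14 (7.14%) and in 1.41% of the genes tested. The search describes letters in this window and says nothing of binding. The upstream bases of the 2 genes follow 5′ to 3′ on the gene's strand, with the element in capitals. Dusp1 covers chr17:26508473-26508722 on the minus strand and Btg2, an antiproliferative gene named after its promoter was searched, covers chr1:134079156-134079405 on the minus strand.
Dusp1: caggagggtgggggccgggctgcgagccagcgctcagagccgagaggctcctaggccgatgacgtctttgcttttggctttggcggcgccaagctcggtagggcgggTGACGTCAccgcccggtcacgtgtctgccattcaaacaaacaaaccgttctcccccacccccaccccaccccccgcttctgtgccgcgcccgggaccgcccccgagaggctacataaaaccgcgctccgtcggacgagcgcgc
Btg2: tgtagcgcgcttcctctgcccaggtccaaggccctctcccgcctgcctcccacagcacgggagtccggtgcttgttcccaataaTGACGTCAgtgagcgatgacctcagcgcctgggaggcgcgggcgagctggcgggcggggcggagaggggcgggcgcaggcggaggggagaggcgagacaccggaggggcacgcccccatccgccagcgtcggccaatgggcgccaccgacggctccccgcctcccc

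**Figure D4:**
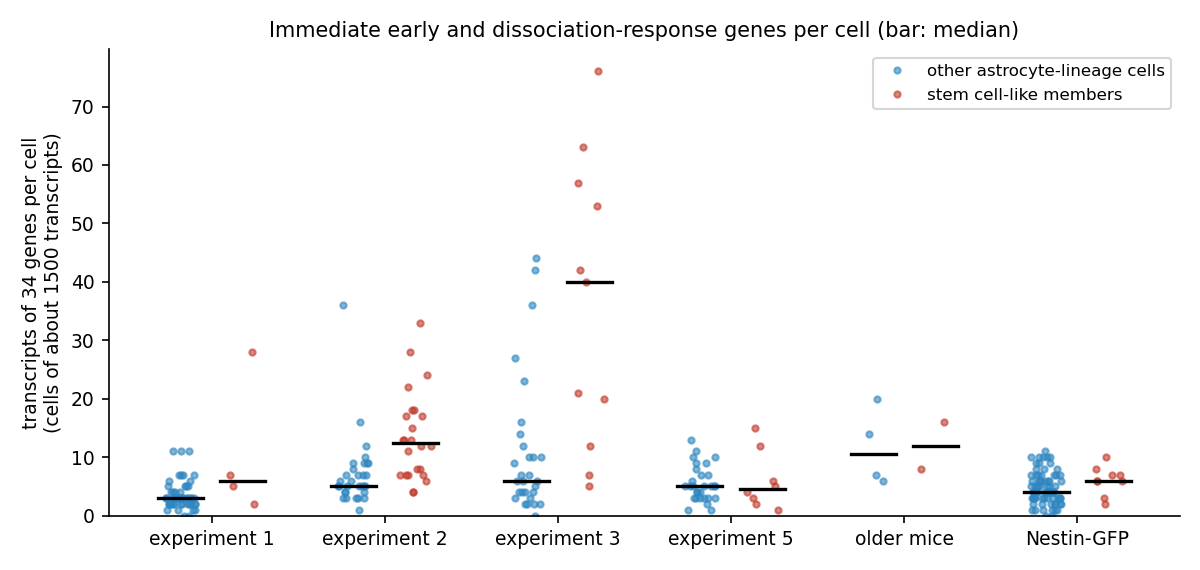
Transcripts of 34 immediate early genes per cell, in cells of about 1500 transcripts, for members (red) and other astrocyte-lineage cells (blue) of each experiment or library with members, with bars at the medians. In experiment 3 the median was 40 in members and 6 in the others, and in experiment 5 it was 4.5 and 5.

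Transcripts per cell differed between members and other astrocyte-lineage cells by 0.66 ± 0.61 on the log2 scale (SD, n = 3), and genes per cell at equal depth by 80.8 ± 56.1, with members on the higher side. With 3 experiments the exact sign-flip permutation test cannot go below p = 0.25. It gave p = 0.5 for transcripts and p = 0.25 for genes, two-sided. Median transcripts per cell were 6087, 4778 and 4047 in members and 2687, 4826 and 2306 in the others, so experiments 2 and 5 had the higher median in members and experiment 3 had nearly equal medians.

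The next comparison sets the members against cells further along the lineage, the neurogenic progenitors and neuroblasts, chosen by 5 or more transcripts of Sox11, Dcx, Eomes, Igfbpl1, Neurod1 and Tubb3 outside the astrocyte lineage, with at most 2 transcripts of Olig1, Olig2, Gpr17 and Pdgfra. Those genes were left out of the test with the 13 of the rule. The 2 classes were still picked on astrocyte-lineage and neuronal transcripts of the same wells. Differences in other glial and neuronal genes therefore go along with how the cells were picked. They are a description and no independent identification. Of 2721 genes tested, 861 passed (31.6%): 490 were higher in members (18%) and 371 lower (13.6%). Glial, lipid and receptor genes were higher in members, and genes of neuronal commitment, the cell cycle and the ribosome lower. With DESeq2, 431 were higher and 188 lower. Another scaling of the same counts (RLE size factors) moved the median log2 difference over all genes from -0.06 to 0.14 and gave 571 higher and 315 lower. Without experiment 2, 447 genes passed. The neurogenic class held 95, 22 and 6 cells in the 3 experiments, with 801501, 159913 and 14909 transcripts in all. The members held 163615, 64179 and 33926. Low CPM values in experiment 5, above all of neurogenic cells, therefore rest on very few transcripts, and a value of 0 says little there.

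Over all genes tested 18% were higher in members and 13.6% lower. Of 34 genes on the radial glia and stem cell list 18 were tested, and 16 were higher in members and none lower. Their median log2 difference was 3.56. Without experiment 2, 10 were higher. Id4, an inhibitor of bHLH factors that holds stem cells quiescent, was at 1090, 597 and 826 CPM in members and at 26.3, 44.03 and 0 CPM in neurogenic cells (4.92 ± 0.44, adjusted p = 3.62e-13). Sox9 was at 181, 139 and 67.1 CPM in neurogenic cells, below each member sum given above (3.33 ± 0.35, adjusted p = 4.15e-11). Notch genes were higher in 3 of 5, Hes5 at 525, 141 and 354 CPM against 9.98, 88.9 and 0 CPM (3.64 ± 0.68, adjusted p = 2.49e-05). Hes5, a Notch target, thus had its narrowest gap in experiment 3. Gli3, a transcription factor of the Hedgehog pathway, was at 160, 251 and 413 CPM against 19.99, 6.27 and 0 CPM (3.68 ± 0.64, adjusted p = 5.94e-06). Of 44 astrocyte function genes 30 were tested and 29 were higher. Htra1, for instance, had 196 counts in members and 11 in neurogenic cells, and was tested only through the former. Apoe was at 11970, 10880 and 13350 CPM against 446, 414 and 268 CPM (5.04 ± 0.50, adjusted p = 6.94e-12). Entpd2, an ectonucleotidase, had no transcript in the neurogenic cells and 759, 567 and 383 CPM in members. With a floor of 3 counts over the group it was at least 214-fold higher. It was tested only through the members and is given without a p-value.

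Genes of lipid metabolism were higher in 13 of 16 tested (7 without experiment 3) and genes of glycolysis in 6 of 11. None was lower. Over all genes tested 18% were higher. Acsl3, a long-chain acyl-CoA synthetase, was at 790, 1993 and 1269 CPM in members against 73.7, 132 and 67.1 CPM (3.79 ± 0.35, adjusted p = 6.06e-13). Among genes of oxidative phosphorylation 1 of 33 was higher and none lower, with a median difference of -0.02.

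Of 36 cell cycle genes 13 were tested. Of these, 11 were lower and none higher, with 7 lower without experiment 2 and 6 without experiment 3. Over all genes tested 13.6% were lower. The filter on low counts keeps a gene that is high in 1 class alone. Mki67, for instance, had 2 counts in members and 123 in neurogenic cells, and was tested only through the latter. These counts therefore do not measure the share of lower genes in the list. Mki67, a marker of dividing cells, was at 12.2, 0 and 0 CPM in members and at 120, 129 and 403 CPM in neurogenic cells (-4.13 ± 0.94, adjusted p = 0.000438). Ccnd2, the cyclin of dividing granule cell progenitors, was at 327, 0 and 118 CPM against 691, 1410 and 537 CPM (-2.28 ± 0.45, adjusted p = 6.60e-05). Of 58 members, 2 had a transcript of Mki67 in the table, with 1 in each, and 3 (5.17%) had 2 or more transcripts of the S-phase and mitosis genes, against 6.41% of other astrocyte-lineage cells, 36.2% of neurogenic cells and 20.1% of microglia-like cells. With 1 or more of these transcripts the shares were 44.8%, 26.9%, 61.4% and 57.4% in the same order, so by this count members stood above the other astrocyte-lineage cells. Of 30 neuronal commitment genes 15 were tested under the same filter, and 13 were lower. Fezf2, a transcription factor of projection neurons that was named after its value was seen, was higher. Elavl3, a neuronal RNA-binding protein, was at 85.6, 47.0 and 29.5 CPM against 748, 729 and 738 CPM (-3.41 ± 0.43, adjusted p = 7.61e-09). Draxin, an axon guidance ligand, was at 12.2, 0 and 29.5 CPM against 462, 528 and 470 CPM (-5.20 ± 0.67, adjusted p = 1.10e-08).

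Ribosomal protein genes were lower in members in 57 of 62 tested, with a median log2 difference of -1.23 beside -0.06 over all genes, in 51 under RLE size factors, in 29 with DESeq2 and in 34 without experiment 3. Their summed level was 33602, 20300 and 21674 CPM in members, 69287, 53710 and 81216 CPM in neurogenic cells, and 23564, 14538 and 16258 CPM in other astrocyte-lineage cells. The sums of members lay below every neurogenic sum. Within each of the 3 experiments they lay above the sum of the other astrocyte-lineage cells, as they did in experiment 1, at 19559 CPM against 10759 CPM. Forebrain transcription factors were lower in 5 of 12 (8 without experiment 5), where 13.6% of all genes tested were lower. Among them was Nfib, at 1159, 875 and 649 CPM against 5018, 4875 and 4165 CPM (-2.18 ± 0.35, adjusted p = 1.26e-06). Vim was higher in members here too (1.57 ± 0.40, adjusted p = 0.00179). Egr1 was lower in members (-1.13 ± 0.34, adjusted p = 0.00671) and Fos higher (1.46 ± 0.39, adjusted p = 0.00294). In experiment 5 Fos was lower in members, at 147 CPM against 403 CPM. Those sums held 33926 and 14909 transcripts in all, so few Fos transcripts lie behind either value.

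**Figure D5:**
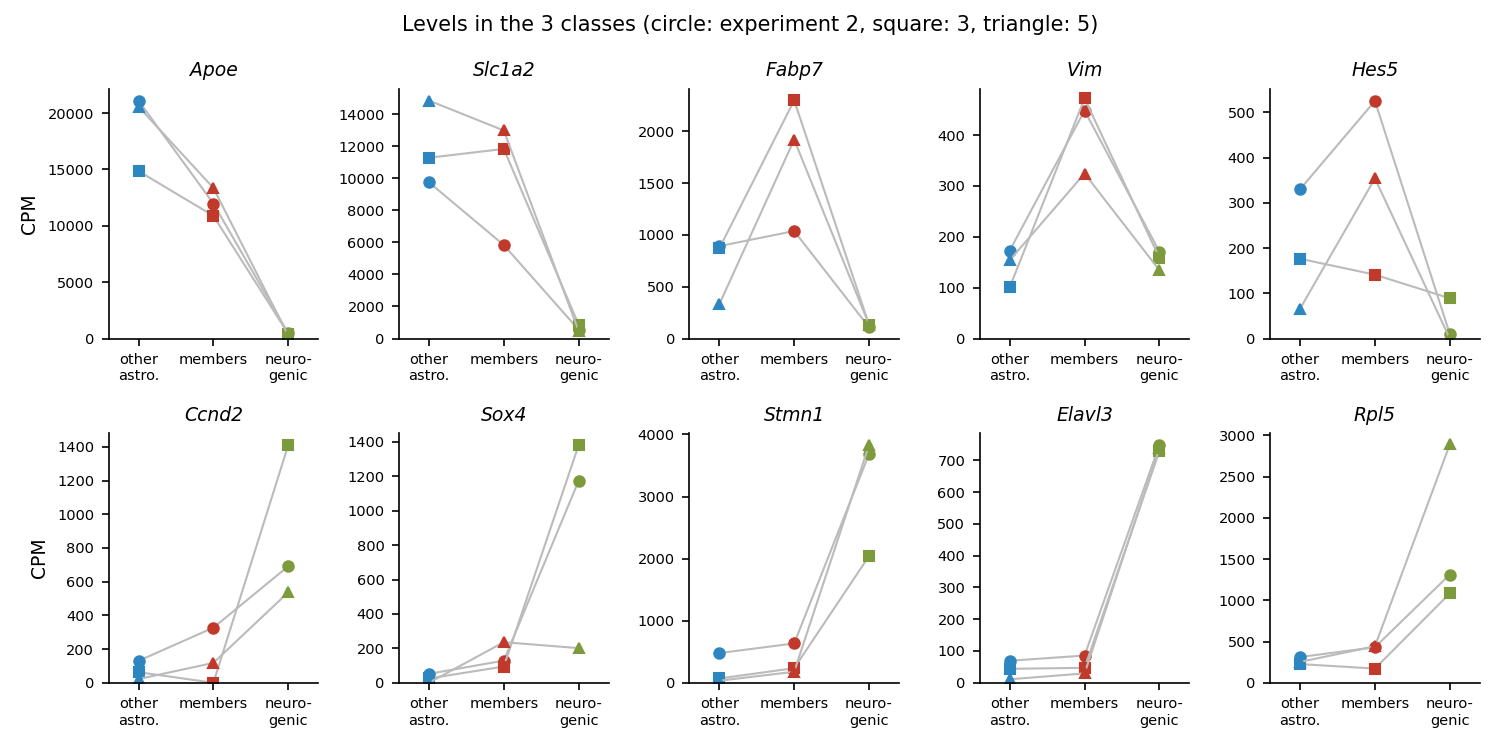
Level in CPM of 10 genes in other astrocyte-lineage cells (blue), members (red) and neurogenic cells (green) of experiments 2 (circle), 3 (square) and 5 (triangle). Fabp7 and Vim are highest in members in each experiment, Apoe is lower in members than in other astrocyte-lineage cells and lowest in neurogenic cells, and Stmn1 and Elavl3 are highest in neurogenic cells.

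Against all other cells of the table, a mixture of microglia, oligodendrocyte-lineage, neurogenic, astrocyte and vascular cells, 801 of 6124 genes tested passed (13.1%), 356 higher in members (5.81%) and 445 lower (7.27%). Without experiment 2, 463 passed, and without experiment 3, 498. The radial glia list had 18 of 23 genes higher, 11 without experiment 2, and the Hedgehog list 4 of 5. Members were picked on astrocyte-lineage genes, so the count of the radial glia list is a description here too. Gli1, a target and effector of Hedgehog signals, was at 122, 78.2 and 88.4 CPM in members and at 6.86, 5.81 and 5.69 CPM in all others (3.99 ± 0.70, adjusted p = 1.53e-05). St6galnac5, a sialyltransferase, was at 85.8, 78.1 and 295 CPM against 3.85, 0 and 0 CPM (5.59 ± 0.77, adjusted p = 8.34e-08). Dcx had no transcript in members, at least 23.4-fold lower with a floor of 3 counts over the group. It was tested only through the other cells, with 909 counts there, and is given without a p-value. Here 11 of 29 immediate early genes were lower in members (7 with DESeq2) and 1, Cyr61, was higher. The values of this comparison move with the makeup of the other cells: leaving out cells with 5 or more markers of another lineage, which removes most microglia and oligodendrocytes, gave 443 genes.

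Members outside the 3 experiments were few and are given as values. The 4 members of experiment 1 had Frzb at 212 CPM, Vim at 426 CPM, Fabp7 at 2087 CPM and Gja1 at 859 CPM, against 19.7, 139, 516 and 2897 CPM in the other astrocyte-lineage cells there. The 9 Nestin-GFP members had no transcript of Frzb, Vim at 161 CPM, Fabp7 at 508 CPM and Gja1 at 1571 CPM, against 6.71, 150, 137 and 2489 CPM. Nes had no transcript in these 9 members. The 2 members of older mice had Fabp7 at 2728 CPM and no transcript of Frzb or Gja1, from 5136 transcripts in all.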

How the data were processed

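Single wells of 31 niche libraries in 5 sorting experiments, of 1 library of older mice and of 1 Nestin-GFP library were analysed. Each deposited count file holds an estimated count for every gene in every well, corrected by the authors for the number of molecular barcodes available. BWA 0.6.2-r126 and the build mm10 are named in the submitters' processing notes. The deposited table of 1536 cells holds estimated counts drawn by the authors to about 1500 transcripts per cell plus a constant of 0.1, which was subtracted. The counting tool, its strand setting and its filters are not stated in the labels. Doublets were not called here.

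Members, other astrocyte-lineage cells and neurogenic cells were defined in the table. The estimated counts of the same wells were summed by class and experiment and rounded to whole numbers, leaving out the 13 genes of the rule. Experiments with at least 5 cells of both classes were fitted with edgeR 4.0.16 (R 4.3.3; TMM, filter on low counts, quasi-likelihood F test, experiment as a block) and Benjamini-Hochberg adjustment over all genes tested at 0.05. The filter keeps a gene that reaches its cutoff in the sums of 1 class alone, so some genes were tested only through the class where they are high. The SE is the log2 fold change divided by the root of F. The block pairs classes sorted in the same experiment, per the labels; the correlation of their deviations from the class means over genes was 0.58, 0.55 and 0.27 in experiments 2, 3 and 5 for the other astrocyte-lineage cells, 0.36, 0.30 and 0.031 for neurogenic cells, and 0.48, 0.40 and 0.20 for all other cells. Counts were also simulated with 1 mean per gene in all experiments, apart from depth, and 1 dispersion for all genes. With a log2 change of 2 the test recovered 94.3% of changed genes against other astrocyte-lineage cells (2033 genes), 88.5% against neurogenic cells (2212 genes) and 69.7% against all other cells (5610 genes). With a log2 change of 1 it recovered 33.3%, 23.7% and 7.78%. Real counts also differ between experiments and in dispersion between genes, so these shares do not measure recovery in them.

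Named genes are the 12 largest changes in each direction that pass the threshold with 1 sign in every experiment and a mean of at least 50 CPM, up to 5 genes by smallest p in each list, and a fixed set of stem cell and astrocyte genes. The members, the lists and this rule were chosen with earlier results of these data known. A few genes that the rule would name are not reported here. Alternatives were DESeq2 1.42.0, other scaling, filters, cell minimums and limits of the rule, the table's own counts, and leaving out experiments. Leaving out the library of experiment 2 with a larger pool of barcodes was chosen after seeing the data. By the values of the counts this pool was 4096, against 256 in the other libraries of experiment 2 and in experiment 3. The libraries of experiment 5, of older mice and of Nestin-GFP mice had the larger pool too, so the fitted experiments differ in it.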

Additional observations from a re-analysis of the deposited data

How the results depend on the processing

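Against other astrocyte-lineage cells, where 169 genes passed, the count was 52 with DESeq2, 17 with no replicate block, 31 on the counts of the 1500-transcript table, 85 with a Hopx plus Sparc sum of 8 or more, 110 with the older-mouse and Nestin-GFP libraries added, and between 0 and 137 when each experiment was left out. Against neurogenic cells, where 861 passed, it was 206 on the table's counts, 601 with no replicate block, and 447 to 1276 when each experiment was left out. Against all other cells, where 801 passed, it was 465 with DESeq2, 298 with no replicate block, 299 on the table's counts, 506 with a sum of 8 or more, 443 without cells that carry markers of other lineages, and 463 to 828 when each experiment was left out. The share of members among niche cells was 2.89% with a sum of 8 or more and 3.003% to 5.87% when each experiment was left out. Without the library of experiment 2 with a larger pool of barcodes the counts were 152, 776 and 704. Changes of sign occurred for Cyr61 against other astrocyte-lineage cells (-0.0133 with a sum of 8 or more). Without cells that carry other-lineage markers they occurred for Tgfbr1 (0.30), Sepp1 (0.16) and Csf1r (0.73) against all other cells. That alternative removes most microglia, and Csf1r is one of the markers by which they were removed. The cause of any of these changes was not tested. Of the named genes' values under all alternatives, 329 against other astrocyte-lineage cells, 62 against neurogenic cells and 223 against all other cells kept their direction and lost the threshold, and 790, 1743 and 1847 kept both. The sums of 8 to 24 members per experiment limit what could be detected.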
